A study of Mus musculus with 15 samples.

Results

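The 10 genes described here encode structural proteins of the basement membrane and the matrix bound to it: the type IV collagen chains Col4a1 and Col4a2, the laminin chains Lama1, Lama5, Lamb1 and Lamc1, the linker Nid1 (nidogen), the heparan sulfate proteoglycan Hspg2 (perlecan), Sparc and Fn1 (fibronectin). They were chosen as a named group, with earlier results of these data known, and were taken by name from the 52636 gene identifiers of the count table, and each name matched 1 identifier. All 10 were among the 13451 genes with enough counts to test.

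RNA was sequenced from mouse epiblast-like cells (EpiLCs), a culture state that stands for the epiblast around implantation. The cells came from the line CRAFR26, which carries a c-RAF kinase construct that 4-hydroxytamoxifen (4OHT) switches on, and c-RAF in turn activates MEK and ERK. Embryonic stem cells had been carried through 2 passages as RSCs and then kept for 48 h in EpiLC medium with Activin A (20 ng/ml), XAV939 (1 µM) and bFGF (12 ng/ml). In every group the FGF receptor inhibitor PD17 (250 nM) was given for 2 h before the experiment. The 0h group received no 4OHT (n = 3), the 2h and 4h groups received 250 nM 4OHT for 2 h and 4 h (n = 4 each), and the rev group received 4OHT for 4 h and then a MEK inhibitor for 2 h (n = 4). Each group drew on 2 clones, named clone 4 and clone 8, and held 2 libraries of either, except 0h, which held 1 of clone 4 and 2 of clone 8 after the authors discarded 1 sample. No sample with 4OHT but without the construct was analysed here, so 4OHT itself, ERK activity and elapsed time cannot be told apart. The labels do not say whether samples of a clone were separate cultures, so the p-values measure the spread between these samples, which may be technical.

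A basement membrane is a thin extracellular sheet on which epithelia, the epiblast among them, rest. Laminins are trimers of an alpha, a beta and a gamma chain that bind cell-surface receptors and polymerise into a first network, and type IV collagen, built mainly of the alpha1 and alpha2 chains, forms a second network that gives the sheet its strength. Nidogen and perlecan join the networks, Sparc binds collagen and accompanies it through secretion, and fibronectin is laid down by cells through integrins in the more open matrix used in migration. In the early embryo the epiblast is polarised by laminin beneath it, and much of the thick membrane around it is made by endoderm cells.

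The genes of the 2 type IV collagen chains lie head to head, and their start region is shown because the genes share it and because their levels are followed together below. In GENCODE M21 (GRCm38) Col4a1 (ENSMUSG00000031502) lies at chr8:11198423-11312826 on the minus strand and Col4a2 (ENSMUSG00000031503) at chr8:11312805-11449287 on the plus strand, so their first exons overlap by 22 bases. The RefSeq promoter windows (GRCm38.p6, 250 bases before the start to 50 bases after it) are chr8:11312777-11313076, minus strand, for Col4a1 and chr8:11312555-11312854, plus strand, for Col4a2. The window of Nid1, chr13:13437352-13437651 on the plus strand, is shown beside them for a gene that changed in the other direction. Capitals mark GC boxes (GGGCGG on either strand) and CCAAT boxes (CCAAT on either strand), and all are written 5′ to 3′ on the gene's own strand.
Col4a1: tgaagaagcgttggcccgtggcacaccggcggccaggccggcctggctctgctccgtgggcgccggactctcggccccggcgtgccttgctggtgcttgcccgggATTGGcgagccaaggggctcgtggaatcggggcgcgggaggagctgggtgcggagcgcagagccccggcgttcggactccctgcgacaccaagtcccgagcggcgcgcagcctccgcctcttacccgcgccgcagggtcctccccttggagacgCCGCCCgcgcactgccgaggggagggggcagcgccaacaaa
Col4a2: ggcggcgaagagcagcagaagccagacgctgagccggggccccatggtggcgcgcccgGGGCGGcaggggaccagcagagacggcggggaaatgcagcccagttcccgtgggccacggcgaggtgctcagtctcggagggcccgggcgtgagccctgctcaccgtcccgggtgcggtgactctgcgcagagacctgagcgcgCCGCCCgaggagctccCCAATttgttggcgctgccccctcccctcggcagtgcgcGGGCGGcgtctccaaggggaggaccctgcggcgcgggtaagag
Nid1: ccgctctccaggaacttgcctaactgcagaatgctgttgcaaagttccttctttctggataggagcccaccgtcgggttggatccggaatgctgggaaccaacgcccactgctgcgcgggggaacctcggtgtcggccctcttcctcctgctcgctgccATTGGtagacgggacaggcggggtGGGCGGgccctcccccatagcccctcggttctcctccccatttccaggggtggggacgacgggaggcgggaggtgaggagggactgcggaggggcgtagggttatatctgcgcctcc
The windows of Col4a1 and Col4a2 have 78 bases in common, given here on the Col4a2 strand with the 22 bases of overlapping exon in capitals.
Shared start: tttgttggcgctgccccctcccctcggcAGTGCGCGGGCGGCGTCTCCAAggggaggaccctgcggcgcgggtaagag
RefSeq promoters were in the table for 7 of the 10 genes, and not for Lama1, Lamc1 and Fn1. A GC box was found in 6 of the 7 (5 matches in Hspg2, 4 in Lama5, 3 in Col4a2, 2 in Lamb1, 1 each in Col4a1 and Nid1) against 35.7% of the 32851 promoters in the table. The Col4a1 match and 1 of the 3 Col4a2 matches are the same site, in the overlapping exon bases. A CCAAT box was found in 4 of the 7 (Col4a1, Col4a2, Lamb1 and Nid1) against 37.4% of all. Neither an AP-1 site (TGANTCA) nor a CArG box, elements through which ERK-driven factors are known to act, was matched in these 7 windows, where 7.81% and 1.63% of all promoters held a match. The Sparc window matched none of these motifs, and a match or its absence describes only the letters of the window.

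The 4h libraries stood apart in depth, which bears on every comparison with that group. Their total counts ran from 1552022 to 6658950, against 8667880 to 13004556 in the 11 other libraries, and once the 20 top genes and all mitochondrial ones are set aside, 523950 to 1453556 counts remain against 2301632 to 6213794. Mitochondrial genes took 7.21% to 12.4% of the counts at 4h and 2.67% to 6.98% elsewhere. Values are given as CPM, library-size-scaled counts, on libraries scaled by TMM, which aligns the bulk of the genes. With libraries scaled by total count instead, the median gene had a log2 change of -0.73 in 4h vs 0h and 0.45 in rev vs 4h, so the changes below are relative to the bulk of the genes, and the part of depth and mitochondrial share in them was not tested. In these bulk samples, fewer cells of a type and less RNA per cell cannot be told apart.

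At 0h the levels per kilobase of transcript spanned a wide range. Lama5, the alpha chain of the main laminin of epithelia, stood highest with 24.0 ± 0.561 CPM per kb (SD, n = 3), followed by Lamb1 with 16.1 ± 0.668. Fn1 (11.0 ± 2.40), Lamc1 (11.0 ± 1.62) and Sparc (10.8 ± 1.69 CPM per kb) did not differ from each other beyond their spread. Hspg2 had 8.19 ± 0.776 and Col4a1 had 4.45 ± 0.541 CPM per kb. Col4a2 (1.37 ± 0.201) and Nid1 (0.942 ± 0.311) overlapped within 1 SD, and Lama1, an alpha chain used early in the embryo, stood lowest with 0.555 ± 0.0555. Over all 15 libraries Lama5 lay above 90.1% of the tested genes in CPM per kb and Lama1 above 11.3%. At 4h Lama1 was still lowest, with 0.261 ± 0.0870 CPM per kb (SD, n = 4), and the order above it had changed. Fn1 then stood highest, with 37.9 ± 9.61 CPM per kb (SD, n = 4), and Lama5 had 13.5 ± 2.39, below Lamc1 (17.1 ± 2.79) and Sparc (17.1 ± 5.20), though the spreads of these 3 overlapped. Nid1, at 4.23 ± 0.755, had moved above Col4a1 (1.51 ± 0.345) and Col4a2 (0.593 ± 0.237 CPM per kb).

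**Figure D1:**
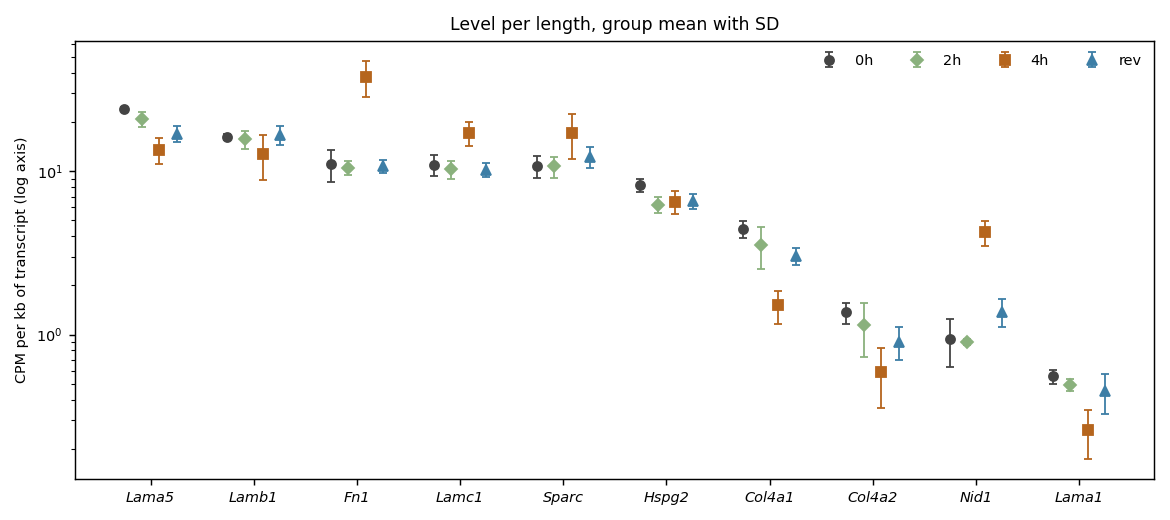
Mean level of each gene in CPM per kb of its longest coding transcript (vertical log axis), with SD over the 3 libraries of 0h or the 4 of each other group; genes are ordered by their 0h level. Fn1 rises from 11.0 to 37.9 at 4h and Lama5 goes from 24.0 to 13.5.

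After 2 h of 4OHT none of the 10 genes had changed past the threshold (a Benjamini-Hochberg adjusted p under 0.05 over all tested genes in edgeR's quasi-likelihood test), where 6.45% of all tested genes were called in 2h vs 0h. Hspg2 came nearest (adjusted p = 0.0505), and DESeq2 called it (adjusted p = 0.035). After 4 h all 10 were called in 4h vs 0h, against 39.4% of all tested genes, and they moved in opposite directions: 4 were higher (20.5% of all tested genes were) and 6 were lower (18.9% were). Fn1, Nid1, Lamc1 and Sparc were higher, and Col4a1, Col4a2, Lama1, Lama5, Lamb1 and Hspg2 were lower. The median absolute log2 change of the 10 was 0.98, against 0.42 over all tested genes. Against 2h, the 4h libraries had 4 of the 10 higher and 5 lower, with Hspg2 not called, where 38.9% of all tested genes were called in 4h vs 2h. Of the 5 lower, Lamb1 (-0.33, adjusted p = 0.0454) lost its call in 10 of 17 alternatives, among them DESeq2 (adjusted p = 0.0565) and the fits without 2h clone4_1, 2h clone8_1, 2h clone8_2, 4h clone8_1 or 4h clone8_2 (adjusted p up to 0.191). In rev vs 4h 9 were called, against 30.8%: Col4a1, Col4a2, Lama1, Lama5 and Lamb1 higher (15.1% of all tested genes were) and Fn1, Nid1, Lamc1 and Sparc lower (15.6% were). In rev vs 0h 2 were called, Col4a1 and Lama5, both lower, against 11.2%. The comparisons with 4h share those 4 libraries, so opposite signs in 4h vs 0h and rev vs 4h are 2 readings of 1 set of samples. Leaving out 1 library, 8 to 10 of the 10 were called in 4h vs 0h and 6 to 9 in rev vs 4h, with 6 without rev clone4_1. The share of all called genes that were higher was 52.0% in 4h vs 0h and 49.2% in rev vs 4h, and 7.11% and 88.0% with total count scaling.

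**Figure D2:**
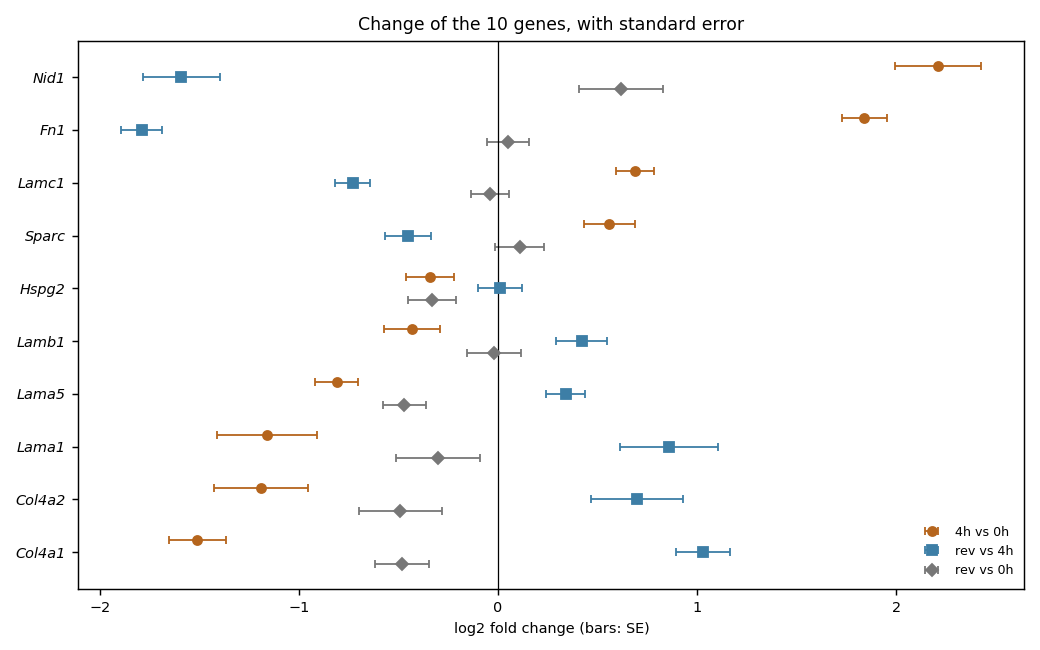
Log2 fold change of the 10 genes (horizontal axis, bars: SE of the model) for the contrasts of 4h with 0h and of rev with 4h and 0h, ordered by the change in 4h vs 0h. Nid1 (2.21) and Fn1 (1.84) lie farthest right and Col4a1 (-1.51) farthest left in 4h vs 0h, and the rev vs 0h symbols lie between -0.49 and 0.62.

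Fn1 (ENSMUSG00000026193, chr1:71585520-71653200, minus strand), whose product is the fibronectin that integrins assemble into fibrils, had 70.0, 95.9 and 109 CPM at 0h (clone4_1, clone8_1, clone8_2). At 2h it had 77.1, 86.5, 97.7 and 88.3 CPM in clone4_1, clone4_2, clone8_1 and clone8_2, an order kept for all 4-library groups below. It had 256, 242, 351 and 410 CPM at 4h and 87.0, 79.1, 93.3 and 98.8 CPM in rev. Every 4h library lay above every other library, and the other 3 groups overlapped. Fn1 rose by 1.84 (SE 0.112) on the log2 scale in 4h vs 0h, or 3.57-fold (adjusted p = 1.31e-10), and fell by 1.79 (SE 0.101) in rev vs 4h (adjusted p = 6.01e-11). Its change in rev vs 0h was 0.05 (SE 0.107, adjusted p = 0.819). Of the tested genes, 94.9% had a smaller absolute change in 4h vs 0h. Under total count scaling it was still higher at 4h, by 1.15 (adjusted p = 0.000369). Of the exon bases of Fn1, 2.5% are shared with Apol7d on the opposite strand, and whether the counting used strand is not given in the sources used here.

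Nid1 (ENSMUSG00000005397, chr13:13437551-13512269, plus strand), which links laminin to type IV collagen, had the largest change of the 10 in 4h vs 0h. It had 3.56, 6.62 and 7.03 CPM at 0h and 5.56, 5.57, 5.67 and 5.20 CPM at 2h. At 4h it had 20.8, 23.0, 29.1 and 30.2 CPM and in rev 8.76, 10.5, 7.89 and 6.54 CPM. The 4h libraries did not overlap any others, and 3 of the 4 rev libraries lay above all 0h libraries. Nid1 rose by 2.21 (SE 0.218) on the log2 scale in 4h vs 0h, 4.64-fold (adjusted p = 1.13e-07), and fell by 1.59 (SE 0.192) in rev vs 4h (adjusted p = 2.27e-06). In rev vs 0h its difference of 0.62 (SE 0.211) missed the threshold (adjusted p = 0.0598), and DESeq2 gave 0.62 with an adjusted p of 0.0373. The counts behind these values were 58 to 99 per library at 0h and 34 to 128 at 4h. Of its exon bases 2.06% are shared with Gm48682 on the opposite strand.

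Lamc1 (ENSMUSG00000026478, chr1:153218922-153332786, minus strand), the gamma chain of most laminins, had 69.5, 92.5 and 88.7 CPM at 0h and 69.7, 70.7, 83.3 and 90.5 CPM at 2h. It had 112, 112, 151 and 147 CPM at 4h and 81.6, 68.0, 84.7 and 76.3 CPM in rev. The 4h libraries lay above all others, in each clone. The rise in 4h vs 0h was 0.69 (SE 0.0960) on the log2 scale, 1.61-fold (adjusted p = 1.02e-05), and the fall in rev vs 4h was -0.73 (SE 0.0878, adjusted p = 2.18e-06). Under total count scaling the 4h vs 0h value turned to -0.03 (adjusted p = 0.938), which is 0.70 above the median gene. The calls in rev vs 4h (-0.33, adjusted p = 0.34) and in 4h vs 2h (0.19, adjusted p = 0.556) were also lost by that scaling.

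Sparc (ENSMUSG00000018593, chr11:55394500-55423183, minus strand), a collagen-binding matricellular protein abundant in parietal endoderm, had 28.9, 24.1 and 21.2 CPM at 0h and 28.4, 26.9, 21.6 and 21.5 CPM at 2h. At 4h it had 47.6, 50.8, 32.3 and 26.0 CPM, and in rev 31.0, 31.6, 27.8 and 22.5 CPM. The clones differed at 4h, with both libraries of clone 4 above both of clone 8, and 4h clone8_2 lay below the 0h library of clone 4. Sparc rose by 0.56 (SE 0.126) in 4h vs 0h (adjusted p = 0.00136) and fell by 0.45 (SE 0.115) in rev vs 4h (adjusted p = 0.00536), on the log2 scale. Under total count scaling the first value turned to -0.17 (adjusted p = 0.625), 0.55 above the median gene, and the second was -0.06 (adjusted p = 0.889). The 4h vs 2h call was lost by that scaling too (0.11, adjusted p = 0.772). Without the clone term the rev vs 4h call was also lost (-0.47, adjusted p = 0.0706).

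**Figure D3:**
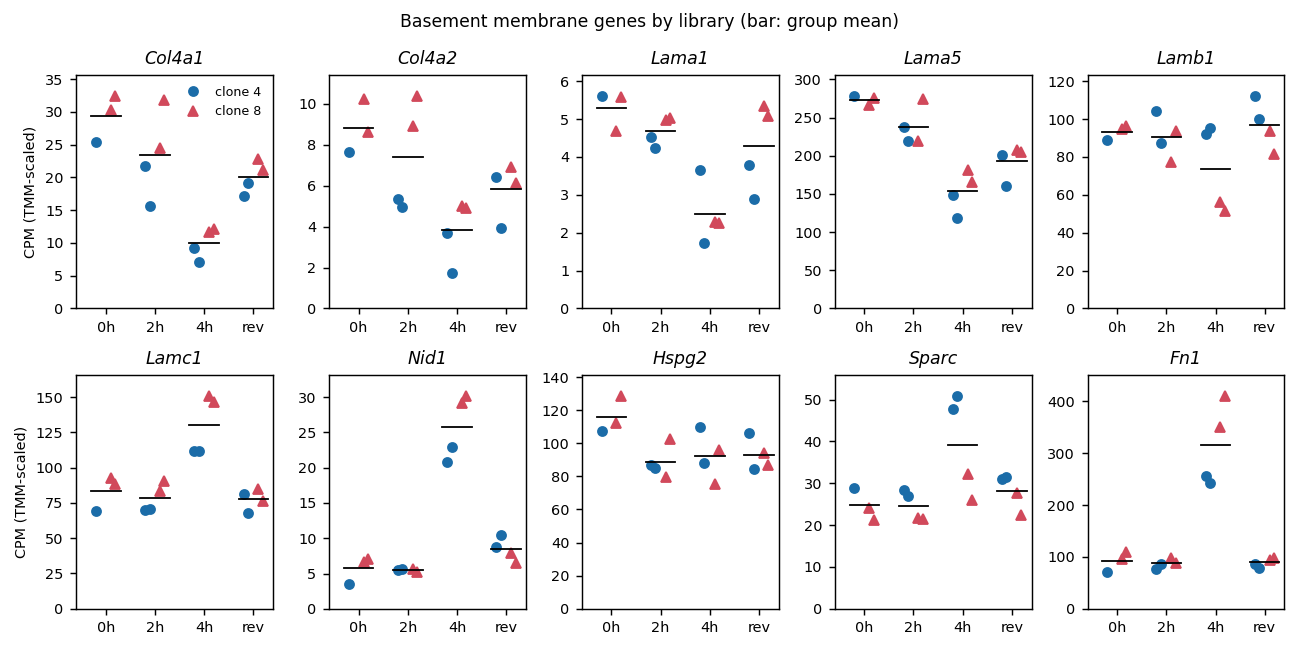
CPM on TMM-scaled libraries (vertical axes, each from 0) of the 10 genes in each of the 15 libraries by group, with clone 4 as circles, clone 8 as triangles and the group mean as a bar. The 4h libraries of Fn1 (242 to 410) and Nid1 (20.8 to 30.2) stand above all others, those of Col4a1 (7.16 to 12.1) stand below all others, and the 4h libraries of Lamb1 split by clone.

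Col4a1 had 25.5, 30.3 and 32.5 CPM at 0h, 21.7, 15.7, 24.5 and 31.8 CPM at 2h, 9.16, 7.16, 11.6 and 12.1 CPM at 4h, and 17.2, 19.1, 22.8 and 21.2 CPM in rev. The 4h libraries were below all others, and the rev libraries lay between those of 4h and 0h without overlapping either. In 4h vs 0h Col4a1 fell by 1.51 (SE 0.144) on the log2 scale, to a level 2.85-fold lower (adjusted p = 7.28e-08), and in rev vs 4h it rose by 1.03 (SE 0.137, adjusted p = 7.25e-06). In rev vs 0h it was still lower, with a log2 change of -0.48 (SE 0.136, adjusted p = 0.0264), a call lost without 0h clone4_1 (-0.41, adjusted p = 0.187), without 0h clone8_2, without either rev library of clone 8, under total count scaling and without the clone term (-0.55, adjusted p = 0.101). Of the tested genes, 92.1% had a smaller absolute change than Col4a1 in 4h vs 0h.

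Col4a2, the partner chain, was sparser, with 7.67, 10.2 and 8.60 CPM at 0h, 5.33, 4.95, 8.90 and 10.4 CPM at 2h, 3.67, 1.73, 5.01 and 4.90 CPM at 4h and 6.45, 3.92, 6.91 and 6.12 CPM in rev. All 4h libraries were below the 0h libraries, while 1 rev library fell within the 4h range. Col4a2 fell by 1.19 (SE 0.237) in 4h vs 0h (adjusted p = 0.000439) and rose by 0.70 (SE 0.231) in rev vs 4h (adjusted p = 0.0250), on the log2 scale. The second call was lost without 4h clone4_2 (0.47, adjusted p = 0.133), without rev clone4_1 (0.50, adjusted p = 0.105) and with DESeq2 (adjusted p = 0.0507). It was also lost without the clone term (0.62, adjusted p = 0.166). Leaving out the top 20 and all mitochondrial genes, or fitting only the groups compared, lost it as well. The counts at 4h were 6, 7, 22 and 13 reads, few enough that counting error is a large part of each value. Over the 15 libraries the log2 CPM of Col4a1 and Col4a2 had a Pearson r of 0.90, a description in which the 4h libraries carry much of the range. Each also had an r of 0.91 with Lama5, so the likeness was not closer within the head-to-head pair.

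Lama5 (ENSMUSG00000015647, chr2:180176373-180225859, minus strand), the alpha chain of the laminins common in epiblast and adult epithelia, had 278, 266 and 275 CPM at 0h and 238, 219, 220 and 275 CPM at 2h. It had 149, 118, 182 and 166 CPM at 4h and 201, 160, 208 and 205 CPM in rev. The 4h libraries lay below all of 0h and 2h, and rev clone4_2 fell within the 4h range. Lama5 fell by 0.81 (SE 0.107) in 4h vs 0h (adjusted p = 4.74e-06) and rose by 0.34 (SE 0.0995) in rev vs 4h (adjusted p = 0.0128), on the log2 scale. In rev vs 0h it was lower by a log2 change of -0.47 (SE 0.107, adjusted p = 0.00545). The rev vs 4h call was lost without 4h clone4_2 (0.24, adjusted p = 0.0765) or rev clone4_1 (0.28, adjusted p = 0.0573), and the rev vs 0h call without 0h clone4_1 (-0.38, adjusted p = 0.0993) and with total count scaling (-0.80, adjusted p = 0.0570).

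Lama1 (ENSMUSG00000032796, chr17:67697259-67822647, plus strand), the alpha chain of a laminin made early in the embryo, was the least abundant per length. It had 5.61, 4.68 and 5.57 CPM at 0h, 4.54, 4.24, 4.97 and 5.04 CPM at 2h, 3.67, 1.73, 2.28 and 2.26 CPM at 4h, and 3.78, 2.89, 5.36 and 5.08 CPM in rev. The 4h libraries were below all of 0h and 2h, on 6, 7, 10 and 6 counts. Lama1 fell by 1.16 (SE 0.252) in 4h vs 0h (adjusted p = 0.00102) and rose by 0.86 (SE 0.245) in rev vs 4h (adjusted p = 0.0108), on the log2 scale.

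Lamb1 (ENSMUSG00000002900, chr12:31265234-31329644, plus strand), the beta chain that pairs with Lama1 or Lama5 and Lamc1, had 88.9, 94.6 and 96.3 CPM at 0h and 104, 87.2, 77.5 and 93.7 CPM at 2h. At 4h it had 92.2 and 95.3 CPM in clone 4 and 56.5 and 51.6 CPM in clone 8, and in rev 112, 99.8, 93.8 and 81.3 CPM. The clone 4 libraries stayed within the 0h range at 4h and the clone 8 libraries lay below every other library. Over both clones Lamb1 fell by 0.43 (SE 0.140) in 4h vs 0h (adjusted p = 0.0175) and rose by 0.42 (SE 0.128) in rev vs 4h (adjusted p = 0.0168), on the log2 scale. The 4h vs 0h call was lost without 0h clone8_1 (-0.38, adjusted p = 0.0637), 4h clone8_1 (-0.37, adjusted p = 0.0664) or 4h clone8_2 (-0.33, adjusted p = 0.0785). The rev vs 4h call was lost without 4h clone8_1, 4h clone8_2, rev clone4_1 or rev clone8_1, with adjusted p up to 0.0948. Without the clone term neither call held (-0.34, adjusted p = 0.162 in 4h vs 0h, and 0.39, adjusted p = 0.101 in rev vs 4h).

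Hspg2 (ENSMUSG00000028763, chr4:137468769-137570630, plus strand), the core protein of perlecan, had another course. It had 107, 112 and 129 CPM at 0h, 87.2, 85.2, 79.4 and 103 CPM at 2h, 110, 87.9, 75.6 and 95.8 CPM at 4h, and 106, 84.6, 93.9 and 86.8 CPM in rev. All 2h and all rev libraries were below the lowest 0h library, and the 2h, 4h and rev groups overlapped. The difference in 2h vs 0h was -0.40 (SE 0.120, adjusted p = 0.0505), just short of the threshold and past it in 7 of its 16 alternatives. In 4h vs 0h it was -0.34 (SE 0.121, adjusted p = 0.0296), a call lost without 0h clone8_2 (-0.30, adjusted p = 0.0940), 4h clone4_2 (-0.33, adjusted p = 0.0551) or 4h clone8_1 (-0.25, adjusted p = 0.117). In rev vs 4h it was 0.01 (SE 0.112, adjusted p = 0.944), and in rev vs 0h -0.33 (SE 0.120, adjusted p = 0.0828).

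The clones differed in the level of several of these genes. Over all groups 6 of the 10 were called in clone 8 vs clone 4, against 18.5% of all tested genes. Col4a2 (0.61, adjusted p = 0.00743), Col4a1 (0.44, adjusted p = 0.00281), Fn1 (0.37, adjusted p = 0.000883) and Lamc1 (0.29, adjusted p = 0.00273) were higher in clone 8, as log2 differences. Sparc (-0.45, adjusted p = 0.000646) and Lamb1 (-0.31, adjusted p = 0.0235) were lower in clone 8. None of the 6 was called with total count scaling, where Col4a2 had an adjusted p of 0.132 and Lamc1 of 0.672, and the Lamb1 call was also lost when any 1 of 5 libraries was left out.

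The time courses of the clones were then compared by fitting every combination of group and clone. Tested together, the 3 interaction coefficients called none of the 10 by edgeR's quasi-likelihood test, against 3.18% of all tested genes. Nid1 (adjusted p = 0.0513) and Lamb1 (adjusted p = 0.0570) came nearest. In 4h vs 0h alone, Lamb1 had a log2 change of 0.08 (SE 0.158) in clone 4 and -0.82 (SE 0.130) in clone 8, a difference of -0.90 (SE 0.207, adjusted p = 0.0154). That difference passed the threshold with all libraries but not without 0h clone8_1, 0h clone8_2 or 4h clone8_2, with adjusted p of 0.0584, 0.0715 and 0.0832, nor with total count scaling. In 4h vs 2h, which does not use the lone 0h library of clone 4, the Lamb1 changes were -0.03 in clone 4 and -0.66 in clone 8, and the difference of -0.63 (SE 0.183) had an adjusted p of 0.0702. Nid1 was 1.43 (SE 0.246) higher in rev vs 0h in clone 4 and 0.08 (SE 0.193) in clone 8, and the difference of -1.35 (SE 0.308) had an adjusted p of 0.0899. In 4h vs 0h Fn1 changed by 1.83 and 1.89, Lamc1 by 0.69 and 0.71, Lama1 by -1.21 and -1.16 and Col4a1 by -1.67 and -1.41 in clones 4 and 8. Nid1 (2.62 and 2.12), Col4a2 (-1.66 and -0.93) and Lama5 (-1.06 and -0.64) differed more in size, with clone differences that were not called. All of these genes were called in both clones. Sparc (0.77 and 0.37) and Hspg2 (-0.12 and -0.49) were called in 1 clone each, with differences of -0.40 (SE 0.234) and -0.37 (SE 0.245) that were not called. In rev vs 4h Fn1, Nid1, Lamc1 and Col4a1 were called in both clones. Only clone 4 had calls for Col4a2 (log2 1.1 and 0.39 in clones 4 and 8), Lama5 (0.44 and 0.25) and Sparc (-0.66 and -0.22). Lama1 (0.47 and 1.2) and Lamb1 (0.18 and 0.69) were called only in clone 8. No clone difference in rev vs 4h was called for these genes. Clone 4 contrasts with 0h rest on a single 0h library.

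**Figure D4:**
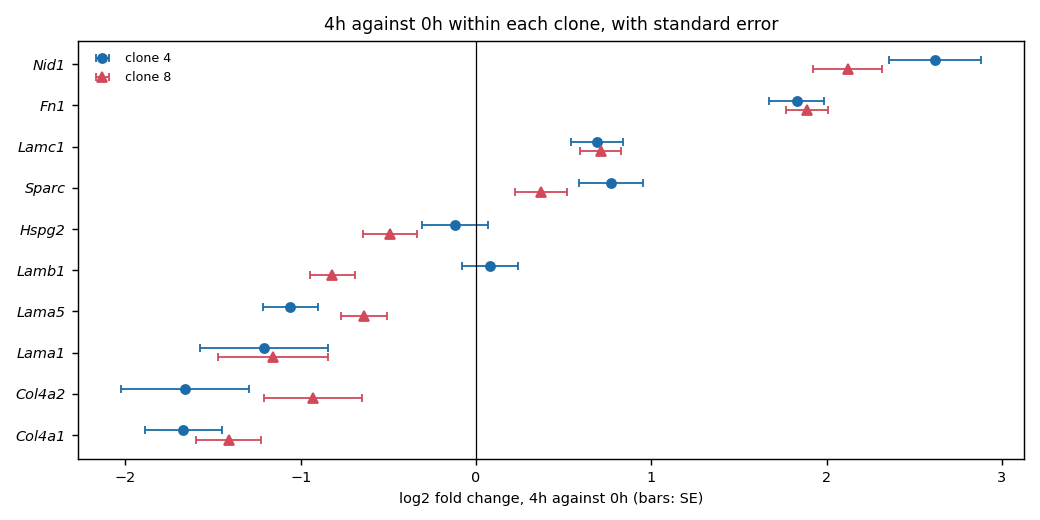
Log2 fold change in 4h vs 0h (horizontal axis, bars: SE) of the 10 genes in clone 4 (circles, 1 library at 0h) and clone 8 (triangles, 2 libraries at 0h). Symbols of Fn1 (1.83 and 1.89) and Lamc1 (0.69 and 0.71) nearly coincide, and those of Lamb1 (0.08 and -0.82) lie farthest apart.

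Across the 15 libraries Col4a1, Col4a2, Lama1 and Lama5 each had a negative r with Fn1, Nid1, Lamc1 and Sparc, from -0.87 (Lama1 with Nid1) to -0.28 (Col4a2 with Lamc1), which their directions at 4h largely fix. Hspg2 had values between -0.22 and -0.06 with those 4 genes, and Lamb1 had 0.12 with Sparc. Lamc1 and Fn1 had an r of 0.95 and Nid1 and Fn1 of 0.94 (log2 CPM, Pearson, n = 15), while Sparc and Fn1 had 0.47. Lamb1 had an r of -0.71 with Lamc1, its partner in the laminin trimer, and 0.21 with Lama5. The genes whose profile was most like the mean of the 10 standardised profiles were Nomo1 (r = 0.932), Flna, Ogdhl, Mpnd, Rrbp1, Afg3l2, Rcn1 and Col18a1 (r = 0.856), among 12275 genes with a mean of at least 1 CPM. Since the 10 moved in opposite directions, Fn1 itself had an r of -0.07 with that mean and Hspg2 had 0.85. Chosen after the values were seen, the genes most like Fn1 were Slc2a3 (r = 0.989), Hsf2bp, Tead1, Ncoa3 and Lefty2, and those most like Col4a1 were Cbs (r = 0.977), St14, Plk5, Skiv2l and Bscl2. The libraries share their groups and depth, so these are descriptions.

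Of 28 further genes listed as basement membrane components, 14 were tested. In 4h vs 0h 4 were higher and 2 lower, a share near the 39.4% called over all tested genes, with a median log2 change of 0.02 against 0.03 over all tested genes. Lama3, a laminin alpha chain of epithelia, had 3.61 ± 1.52 CPM at 0h (SD, n = 3) and 19.5 ± 7.09 CPM at 4h (SD, n = 4), a log2 change of 2.26 (SE 0.162, adjusted p = 1.12e-09). Nid2, the second nidogen, went from 62.6 ± 2.77 to 167 ± 9.38 CPM, a change of 1.38 (SE 0.113, adjusted p = 7.35e-09). Both nidogens were thus higher at 4h, and both stayed higher with total count scaling (Nid1 1.50, Nid2 0.66). Fbln1 (fibulin-1) rose by 0.84 (adjusted p = 0.000124) and Hmcn1 (hemicentin-1) fell by 2.06 (adjusted p = 8.75e-05), from 2.38 ± 0.145 to 0.578 ± 0.134 CPM. In rev vs 4h 1 of the 14 was higher, Hmcn1 (1.20), where 15.1% of all tested genes were. Another 4 were lower, among them Lama3 (-1.07), Fbln1 (-0.98) and Nid2 (-0.81), where 15.6% of all tested genes were. With total count scaling 2 of the 14 were higher and 5 lower in 4h vs 0h. By that scaling 6697 of the 13451 tested genes were called, 7.11% of them higher. Lama3, Nid2 and Fbln1 were then not called in rev vs 4h.

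**Figure D5:**
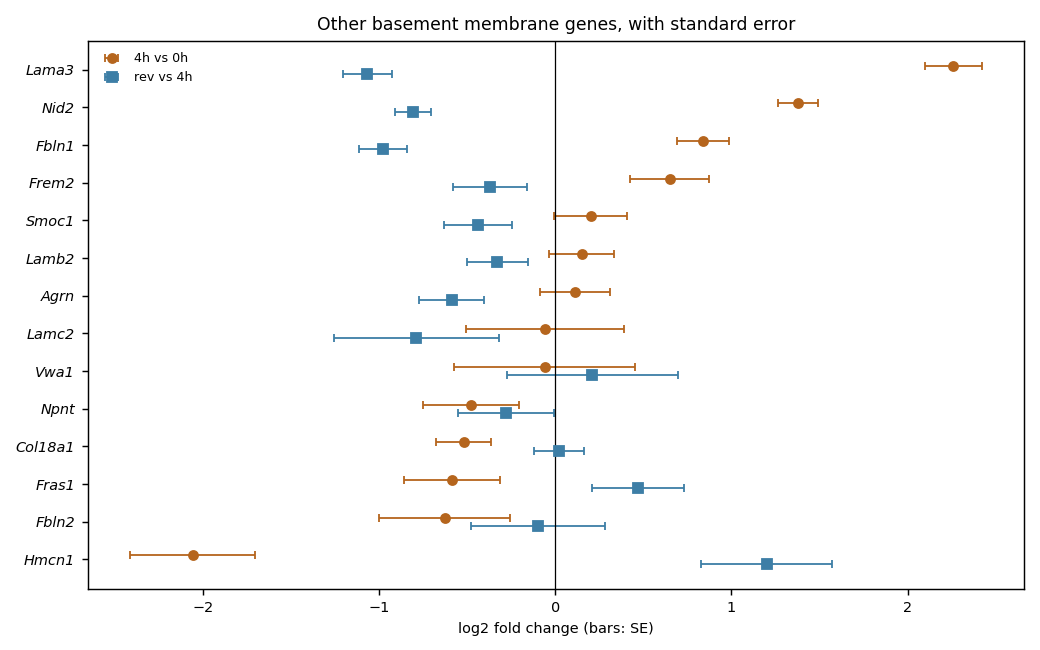
Log2 fold change (horizontal axis, bars: SE) of the 14 tested basement membrane genes outside the 10, in 4h vs 0h (circles) and rev vs 4h (squares). Lama3 (2.26) and Nid2 (1.38) lie farthest right and Hmcn1 (-2.06) farthest left in 4h vs 0h.

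Among receptors for these proteins (integrins, syndecans, dystroglycan and others), 7 of 22 tested genes were higher and 4 lower in 4h vs 0h, where 20.5% and 18.9% of all tested genes were. Itga5, the alpha subunit of the main fibronectin receptor, went from 11.1 ± 0.518 to 35.7 ± 10.5 CPM (1.53, adjusted p = 2.14e-07) and fell by 1.15 in rev vs 4h (adjusted p = 2.39e-06). Sdc1, a heparan sulfate receptor, fell by 0.81 in 2h vs 0h (adjusted p = 0.0128) and by 1.18 in 4h vs 0h (adjusted p = 0.000109). Under total count scaling 2 receptors were higher and 8 lower at 4h, with Itga5 still higher (0.83). By that scaling 6697 of the 13451 tested genes were called in 4h vs 0h, 7.11% of them higher.

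Of 23 tested genes for the folding, modification and secretion of collagen and matrix, 5 were higher and 4 lower in 4h vs 0h, near the 39.4% called over all tested genes. P4ha1, a catalytic subunit of collagen prolyl 4-hydroxylase, rose by 1.21 (adjusted p = 2.56e-05), and Serpinh1, the collagen chaperone HSP47, by 0.93 (adjusted p = 0.000121). P4hb, the partner subunit of P4ha1 and also protein disulfide isomerase, fell by 0.73 (adjusted p = 6.98e-07), and Pxdn (peroxidasin, which cross-links type IV collagen) fell by 0.63 (adjusted p = 0.000947). Scaled by total count, none was higher and 10 were lower, and the rises of P4ha1 (0.50) and Serpinh1 (0.17) were not called. Of all 13451 tested genes 6697 were called by that scaling, 7.11% of them higher.

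Of 18 tested genes for matrix breakdown and its inhibitors, 4 were already higher in 2h vs 0h and none was lower, where 6.45% of all tested genes were called, among them Adamts1 (2.62), Plat (2.33) and Mmp9 (1.91). In 4h vs 0h 8 were higher and 2 lower, against 20.5% and 18.9% of all tested genes, among them Mmp9 (3.50), a gelatinase that cleaves type IV collagen, and Plaur (3.20), the urokinase receptor. At 4h Plaur had 24.3 ± 24.2 CPM and Mmp9 3.87 ± 3.56 CPM (SD, n = 4), so the libraries differed widely. At 0h Mmp9 had only 0.233 ± 0.131 CPM (SD, n = 3). Adamts1 did not stay up, with 2.14 ± 0.538 CPM at 0h, 16.2 ± 8.36 at 2h and 2.12 ± 1.94 at 4h. Its 4h vs 0h change of -0.33 was not called (adjusted p = 0.464 by edgeR). Scaled by total count, 5 of the 18 were higher and 8 lower at 4h, with Adamts1 (-1.14) among the lower. Of all 13451 tested genes 6697 were called by that scaling in 4h vs 0h, 7.11% of them higher.

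Markers of other cells were low. The 15 markers of primitive and parietal endoderm, cells that make much basement membrane, summed to between 6.08 and 11.8 CPM in every library, with 1 marker at 0 in all libraries, and to 6.11 to 11.6 CPM at 4h. The 10 fibroblast markers summed to 1.13 to 6.11 CPM at 4h, 5.21 to 11.6 CPM at 0h and 9.13 to 18.0 CPM in rev, again with 1 at 0 throughout. Of the 11 EpiLC and general pluripotency markers all were tested. Their sums were 1830 to 2100 CPM at 0h, 1650 to 1880 at 2h, 1260 to 1530 at 4h and 1440 to 1660 in rev. In 4h vs 0h 4 of the 11 were higher and 5 lower, against 20.5% and 18.9% of all tested genes. With total count scaling 2 were higher and 6 lower, where 6697 of the 13451 tested genes were called, 7.11% of them higher. The 10 naive pluripotency markers summed to 145 to 243 CPM at 4h and to 25.9 to 52.9 CPM in the other groups. Of these markers 9 passed as higher in 4h vs 0h under both scalings, against 20.5% of all tested genes with TMM. The part of the naive markers in the changes of the 10 genes was not tested. All 6 ERK output genes checked passed as higher in 4h vs 0h, against 20.5% of all tested genes. With total count scaling 5 of the 6 did. In 2h vs 0h 5 of the 6 were already higher, where 6.45% of all tested genes were called. In 4h vs 2h 1 was higher and 4 were lower, against 38.9% called. In rev vs 4h 4 were lower, against 30.8%, and in rev vs 0h 4 were still higher, against 11.2%.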

How the data were processed

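RNA-seq counts per gene were deposited for 15 samples as 1 table of raw whole numbers with no normalization seen in the values. Ribosomal RNA was removed from 1 µg of total RNA before libraries were made, per the labels' protocols. bcl2fastq 2.19.1, STAR 2.5.3a and mm10 are named in the submitters' processing notes, and the annotation, the counting rule and the use of strand are not given in the sources used here. Of 52636 identifiers 52489 were in GENCODE M21, which gave names, positions and lengths. The table held 0 columns of other samples.

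Counts were filtered with filterByExpr (minimum count 10, minimum total count 15), scaled by TMM and tested with edgeR 4.0.16 in R 4.3.3 (quasi-likelihood F test, robust, two-sided; group plus clone, all 15 samples), with Benjamini-Hochberg adjustment over 13451 genes. Alternatives used DESeq2 1.42.0 and other fits. CPM per kb divides by the longest coding transcript. Correlations used log2 CPM (prior count 2). The steps were tested on simulated data. Reads carry no molecular identifiers.

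The 10 genes and all lists were chosen with earlier results of these data known. Genes outside the 10 are named where they are called, reach 1 CPM on average and are among the 4 largest changes of their list in a comparison, or are the 8 most like the mean profile; others are said to be chosen after their values were seen. An item that this rule would name is not reported here.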

Additional observations from a re-analysis of the deposited data

Results flagged for a closer look

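In rev, Lama5 had 160 CPM in clone4_2, and the other 3 libraries had 201, 208 and 205 CPM. The gap to its nearest neighbour was 0.86 of the range of the group, above the critical value of Dixon's test for 4 samples. Chance marks about 1 in 20 groups in this way.

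Lamb1 differed between the clones in 4h vs 0h, with a clone 8 minus clone 4 difference of -0.90 on the log2 scale (edgeR's interaction term, adjusted p = 0.0154). At 4h it had 92.2 and 95.3 CPM in clone 4 and 56.5 and 51.6 CPM in clone 8. The clone 4 value rests on 1 library at 0h, and the joint test over all groups had an adjusted p of 0.0570.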

How the results depend on the processing

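Over all alternatives, 1040 estimates for the 10 genes were recomputed, and 960 kept their side of the threshold and, where called, their direction; 47 of these 960 changed sign while passing the threshold neither way. Of the others, 59 lost a call, 19 gained one and 2 changed sign after being called. The 2 were Lamc1 (-0.03) and Sparc (-0.17) in 4h vs 0h with total count scaling, where the median gene moved by -0.73. The shifts of the median gene were -0.18 in 2h vs 0h, -0.57 in 4h vs 2h and -0.30 in rev vs 0h.

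With total count scaling 266 genes were called in 2h vs 0h, 759 in rev vs 0h, 761 in clone 8 vs clone 4 and 113 for a clone difference in response, with 0 of the 10 genes called in rev vs 0h and 0 in clone 8 vs clone 4. With no filter beyond a total of 1 count, 1305 genes were called in 2h vs 0h and 668 for a clone difference, with 1, 4 and 1 of the 10 in 2h vs 0h, in rev vs 0h and for a clone difference. With the top 20 and all mitochondrial genes left out the counts were 1499 in 2h vs 0h and 2296 in rev vs 0h, with 1, 4 and 1 of the 10. Without the clone term they were 427 and 793, with 1 of the 10 in rev vs 0h. That fit called 9 of the 10 in 4h vs 0h and 6 in rev vs 4h. Fits to only the groups compared called 2934 genes in rev vs 0h and 1 and 4 of the 10. The legacy quasi-likelihood fit, chosen after seeing the data, called 1327 genes in 2h vs 0h, 1 of the 10 there and 1 for a clone difference. DESeq2 and the offset for transcript length called 1 of the 10 in 2h vs 0h. Leaving out 1 library gave 308 to 1077 genes and 0 to 1 of the 10 in 2h vs 0h, 511 to 1299 and 0 to 3 in rev vs 0h, and 237 to 489 and 0 to 1 for a clone difference. The lowest of these were 308 and 511 without 0h clone4_1 and 237 without 4h clone8_1. The clone difference of Lamb1 in 4h vs 0h was -0.80 with total count scaling (adjusted p = 1) and -0.94 to -0.82 leaving out 1 library. No fit without 0h clone4_1 could be made for it. The cause of these changes was not tested.

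Samples share replicate numbers within clones, and the differences between numbers 1 and 2 correlated between groups at -0.194 to 0.261. The numbers were not used as pairs in the main fit, and these values cannot settle whether the samples were paired. With the replicate block 653 genes were called in 2h vs 0h and 1104 in rev vs 0h, 1 of the 10 was called in rev vs 0h, with Col4a1 lost (-0.43, adjusted p = 0.0530), and Lamb1 was not called in 4h vs 2h (adjusted p = 0.0705). Depth limits Lama1 and Col4a2 most, at 6 to 10 and 6 to 22 counts at 4h.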

Other observations

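Of 10 tested genes of fibrillar and interstitial matrix, 1 was lower in 4h vs 0h, where 39.4% of all tested genes were called, Fbn1 (fibrillin-1, -1.02, adjusted p = 0.000138 by edgeR), and in rev vs 4h Col1a1 (1.64), Thbs1 (1.06) and Fbn1 (0.86) were higher, a share near the 30.8% called over all tested genes. Col1a1 also stands in the list of fibroblast markers.

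Among 13 tested genes of epithelial and mesenchymal state, 5 were higher and 4 lower in 4h vs 0h, against 20.5% and 18.9% of all tested genes. Zeb1, a repressor of epithelial genes, had 1.78 ± 0.330 CPM at 0h (SD, n = 3) and 18.2 ± 1.71 CPM at 4h (SD, n = 4), and Vim (vimentin) 25.2 ± 3.35 and 163 ± 114 CPM. Cldn6, a tight junction claudin, went from 30.5 ± 1.90 to 3.47 ± 2.45 CPM. In rev they had 2.39 ± 0.662, 41.5 ± 5.45 and 28.5 ± 1.01 CPM (SD, n = 4). With total count scaling 4 of the 13 were higher and 7 lower at 4h. By that scaling 6697 of the 13451 tested genes were called in 4h vs 0h, 7.11% of them higher.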
